A study of Mus musculus with 9 samples.

Results

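The genes described here are the 2 GSK3 kinases and 8 genes of the β-catenin turnover and output machinery around them, chosen by name: Gsk3a, Gsk3b, Ctnnb1, Apc, Axin1, Csnk1a1, Btrc, Tcf7l1, Tcf7l2, and Bcl9. All 10 were found among the 50686 genes of the deposited count table, and all 10 passed the expression filter that left 15531 genes to test. RNA-Seq was performed on total RNA from 3 groups with n = 3 libraries each. The first was control MC3T3-E1, a mouse osteoblast line. The second was the same line given 10 μM SB216763, a small-molecule GSK3 inhibitor, for 14 days, and the third was untreated mouse pulmonary endothelial cells (ECs). The osteoblasts are a single cultured line, and the ECs were collected by flow sorting, per the study's supplement. The sources used here give neither the strain or age of the mice, nor the time in culture or vehicle of the control osteoblasts, nor whether libraries of a group came from separate cultures or animals. P values therefore measure the spread between these libraries, which may be technical. The comparisons ask whether transcripts of the inhibited kinases and of their partners moved under the inhibitor, and where ECs stood in relation.

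In the absence of Wnt ligand, β-catenin is bound in a destruction complex by the scaffolds axin and APC. Casein kinase 1α phosphorylates it first and GSK3 adds further phosphates, after which the F-box protein β-TrCP recruits a ubiquitin ligase and β-catenin is degraded. When GSK3 is blocked or Wnt is present, β-catenin accumulates and enters the nucleus, where it binds TCF/LEF factors together with BCL9 and pygopus proteins. In osteoblasts this pathway is known to promote bone formation, and in ECs it takes part in vessel patterning and barrier formation. An inhibitor of GSK3 acts on the kinase protein. The values below are transcript levels and hold no measure of kinase activity or of β-catenin protein.

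The libraries held 30990107 to 68946333 counts each, so that 3 counts, taken as the lowest level the depth can show, were worth 0.0435 to 0.0968 CPM (counts scaled to the library total). This covers counting error only. Levels below are CPM after TMM normalization, and every member had at least 811 counts in every library. Cell type markers followed the labels. The summed level of 6 endothelial markers (Cdh5, Pecam1, Kdr, Tek, Tie1, and Emcn) was 6075 to 6226 CPM in ECs, 2.06 to 2.78 CPM in control and 2.11 to 2.64 CPM in SB216763-treated osteoblasts, and none of the 6 passed the test between the osteoblast groups. The summed level of 8 osteoblast markers (Runx2, Sp7, Col1a1, Col1a2, Alpl, Ibsp, Bglap, and Bglap2) was 43910 to 59330 CPM in control, 8069 to 8340 CPM in treated osteoblasts, and 45.1 to 64.5 CPM in ECs. Col1a1 and Col1a2 made up most of it, at 24502 and 27820 CPM in control and 2730 and 5319 CPM in treated osteoblasts on average. With treatment 7 of the 8 were called lower, where 32.0% of all genes were. Runx2 went from 158 to 116 CPM on average, and Bglap2, from 4.25 to 5.25 CPM, was not called. Leukocyte markers summed to at most 59.7 CPM, a level reached in ECs, where Cd68 was at 45.5 to 47.5 CPM. Lyz2 was at 25.1 to 27.3 CPM in control osteoblasts, and Cd3e was at 0 in all libraries. Epithelial markers summed to at most 0.312 CPM, with Epcam at 0. The 6 mural and fibroblast markers summed to 3397 to 3564 CPM in control, 1152 to 1185 CPM in treated osteoblasts, and 40.9 to 42.6 CPM in ECs. Acta2 made up most of that sum, at 2914 CPM in control and 144 CPM in treated osteoblasts on average, while Pdgfrb (253 and 746 CPM) and Pdgfra (33.3 and 66.9 CPM) rose, and the list had a median log2 fold change of 0.04. With treatment, 2 other measures moved as well. All 6 cycling markers were lower, with a summed level of 212 to 227 CPM in treated libraries against 1125 to 1197 CPM in control libraries, and mitochondrial transcripts took 0.831% to 2.26% of counts against 0.304% to 0.484%. Their part in the results below was not tested. Neither can fewer cells of a type be told apart from less RNA per cell in these bulk libraries.

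The promoters of 4 members are shown because they head the genes on which the results turn, the 2 kinases and the 2 TCF members that moved in opposite directions. Each is the 250 bases before the start of the gene in RefSeq, on GRCm38.p6, read 5′ to 3′ on the strand of the gene. Capitals mark 2 motifs, searched on both strands with overlapping matches counted. The first is the letters CTTTGAT of the TCF/LEF consensus, with which the variant CTTTGAA was counted. The other is the GC box, a site of Sp family factors, with the letters GGGCGG. The window of Gsk3a lies at chr7:25237852-25238101, that of Gsk3b at chr16:38088751-38089000, that of Tcf7l1 at chr6:72789046-72789295, and that of Tcf7l2 at chr19:55741560-55741809. The annotation used for gene lengths, GENCODE M21, starts Tcf7l1 on the minus strand at chr6:72789254, inside this window. By that annotation most of the Tcf7l1 window lies within the gene.
Gsk3a: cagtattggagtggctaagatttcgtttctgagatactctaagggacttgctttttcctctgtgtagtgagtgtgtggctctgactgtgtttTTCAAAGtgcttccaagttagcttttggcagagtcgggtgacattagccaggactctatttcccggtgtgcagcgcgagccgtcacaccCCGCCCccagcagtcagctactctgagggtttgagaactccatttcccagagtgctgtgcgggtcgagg
Gsk3b: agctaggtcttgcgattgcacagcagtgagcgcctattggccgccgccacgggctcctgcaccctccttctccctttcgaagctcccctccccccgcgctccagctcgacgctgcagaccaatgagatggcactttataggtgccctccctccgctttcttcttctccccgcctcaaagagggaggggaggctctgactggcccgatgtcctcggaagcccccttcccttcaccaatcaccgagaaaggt
Tcf7l1: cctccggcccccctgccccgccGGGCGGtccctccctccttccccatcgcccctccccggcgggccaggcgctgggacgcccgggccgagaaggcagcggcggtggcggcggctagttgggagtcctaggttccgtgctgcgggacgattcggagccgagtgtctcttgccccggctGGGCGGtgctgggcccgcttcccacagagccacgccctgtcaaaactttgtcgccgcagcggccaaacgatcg
Tcf7l2: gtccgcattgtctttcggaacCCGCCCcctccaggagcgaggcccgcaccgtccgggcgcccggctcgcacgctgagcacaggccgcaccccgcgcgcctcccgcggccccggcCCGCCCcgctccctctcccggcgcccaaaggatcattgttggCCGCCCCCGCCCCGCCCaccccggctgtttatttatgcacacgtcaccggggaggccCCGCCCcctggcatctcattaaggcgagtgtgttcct
The window of Gsk3a held the TCF/LEF letters once, as CTTTGAA on the opposite strand starting 158 bases before the gene, and 1 GC box. The window of Gsk3b held neither. Those of Tcf7l1 and Tcf7l2 held no TCF/LEF letters and 2 and 6 GC boxes, of which 3 in Tcf7l2 run together. GC content was 52.0% for Gsk3a, 62.0% for Gsk3b, 73.6% for Tcf7l1, and 72.8% for Tcf7l2, against a median of 52.4% over 32851 promoters. CpG dinucleotides numbered 9, 15, 29, and 30 in the same order, against a median of 6. RefSeq promoters were matched for 6 of the 10 members, with 8 windows in all. The TCF/LEF letters occurred in 1 of these 8 windows and in 7.48% of all promoters. The GC box occurred in 6 of 8, where Ctnnb1 is counted by more than 1 window, and in 32.7% of all promoters. These matches describe letters, not binding.

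Neither GSK3 kinase transcript passed the test between SB216763-treated and control osteoblasts. Gsk3a encodes GSK3α. Its levels were 59.7, 58.3, and 54.5 CPM in the control, 61.7, 60.7, and 54.4 CPM in the treated, and 63.3, 60.4, and 64.5 CPM in the EC libraries. The osteoblast groups overlapped almost entirely, and the log2 fold change was 0.03 with a 95% interval of -0.07 to 0.14 (adjusted p = 0.613, edgeR quasi-likelihood test with Benjamini-Hochberg adjustment over all genes tested, as for all adjusted p values below). The EC libraries stood slightly higher than controls, by a log2 fold change of 0.12 (edgeR adjusted p = 0.046), which is short of the threshold of 0.01 used here. Scaled by library totals alone, which also moved the median of all genes tested from 0.01 to 0.22 with treatment, Gsk3a had log2 fold changes of 0.24 with treatment and 0.25 in ECs against control, both past the threshold (edgeR adjusted p = 7.35e-04 and 3.76e-04). An antisense gene, 9130221H12Rik, shares 820 bases of exon with Gsk3a on chromosome 7 (25228258 to 25237851, GENCODE M21 on GRCm38). It held 609 counts over the 9 libraries, against at least 1571 for Gsk3a in each library. As the strand setting of the counting is not given in the sources used here, reads of the 2 genes cannot be told apart there.

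Gsk3b encodes GSK3β, the isoform most often studied in Wnt signaling. Its levels were 203, 174, and 191 CPM in control libraries, 174, 167, and 168 CPM in treated libraries, and 192, 202, and 186 CPM in EC libraries. The treated libraries were the lowest of the 3 groups, but the highest treated library met the lowest control library. The log2 fold change was -0.16 (95% interval -0.27 to -0.05, edgeR adjusted p = 0.0182), and the threshold was not met. Without control replicate 2, the lowest control library, it was -0.22 with an edgeR adjusted p of 3.35e-04, and without control replicate 1, the highest, it was -0.11 with an edgeR adjusted p of 0.0987. When libraries were scaled by their totals alone, it was 0.0464 in the opposite direction (edgeR adjusted p = 0.449). DESeq2 placed it past the threshold (adjusted p = 0.00878). Between ECs and treated osteoblasts Gsk3b was higher in ECs by 0.19 (edgeR adjusted p = 0.00511). This call was lost without SB216763 replicate 1, 2, or 3 or EC replicate 1 or 2, where the edgeR adjusted p was 0.0112 to 0.0323, and with library totals alone or no expression filter, where it was 0.0678 and 0.0345. Between ECs and control osteoblasts the log2 fold change was 0.03 (95% interval -0.08 to 0.14, edgeR adjusted p = 0.608).

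Per kilobase of exon the kinases stood at nearly equal levels. Gsk3a had 19.8 CPM per kb and Gsk3b 19.3 in control, 20.3 and 17.3 in treated osteoblasts, and 21.6 and 19.7 in ECs. The share of Gsk3a in their sum was 50.8% ± 2.16 in control, 54.0% ± 1.51 in treated osteoblasts, and 52.4% ± 1.92 in ECs (SD, n = 3). Scaled by the longest transcript in place of all exons, it was 56.0% in treated osteoblasts and 54.4% in ECs. Of the 2900 bases of Gsk3a exon, 820 are shared with the antisense gene, so its level per kb also depends on how reads there were counted. The summed level was 39.1 ± 1.87, 37.6 ± 1.62, and 41.3 ± 0.132 CPM per kb in the same order, and the control libraries (37.8 to 41.2) overlapped the treated ones (35.8 to 39.0). The log2 ratio of Gsk3b to Gsk3a counts within a library, which does not depend on scaling between libraries, went from a mean of 1.72 to one of 1.53, with a pooled SD of 0.108 (n = 3). The difference of -0.19 gave p = 0.2 in an exact 2-sided permutation test, where 3 against 3 libraries cannot go below 0.1. Only control replicate 2 overlapped the treated libraries. Per kb its share of Gsk3b was 46.8%, against 50.1% and 50.8% in the other controls and 44.8% to 47.7% in treated libraries. That library differed by transcript length, as described below, and the ratio sets 9831 bases of exon against 2900. The part of length in the ratio was not tested. The transcripts whose profiles over the 9 libraries came closest to Gsk3a were Sap30bp, Ccdc124, and Vps52, with a root mean square difference of log2 CPM of 0.0378 to 0.0421 against a median of 0.52 over all genes tested. For Gsk3b they were Zfp275, Pggt1b, and Arih1, at 0.0269 to 0.0405 against a median of 0.524.

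**Figure D1:**
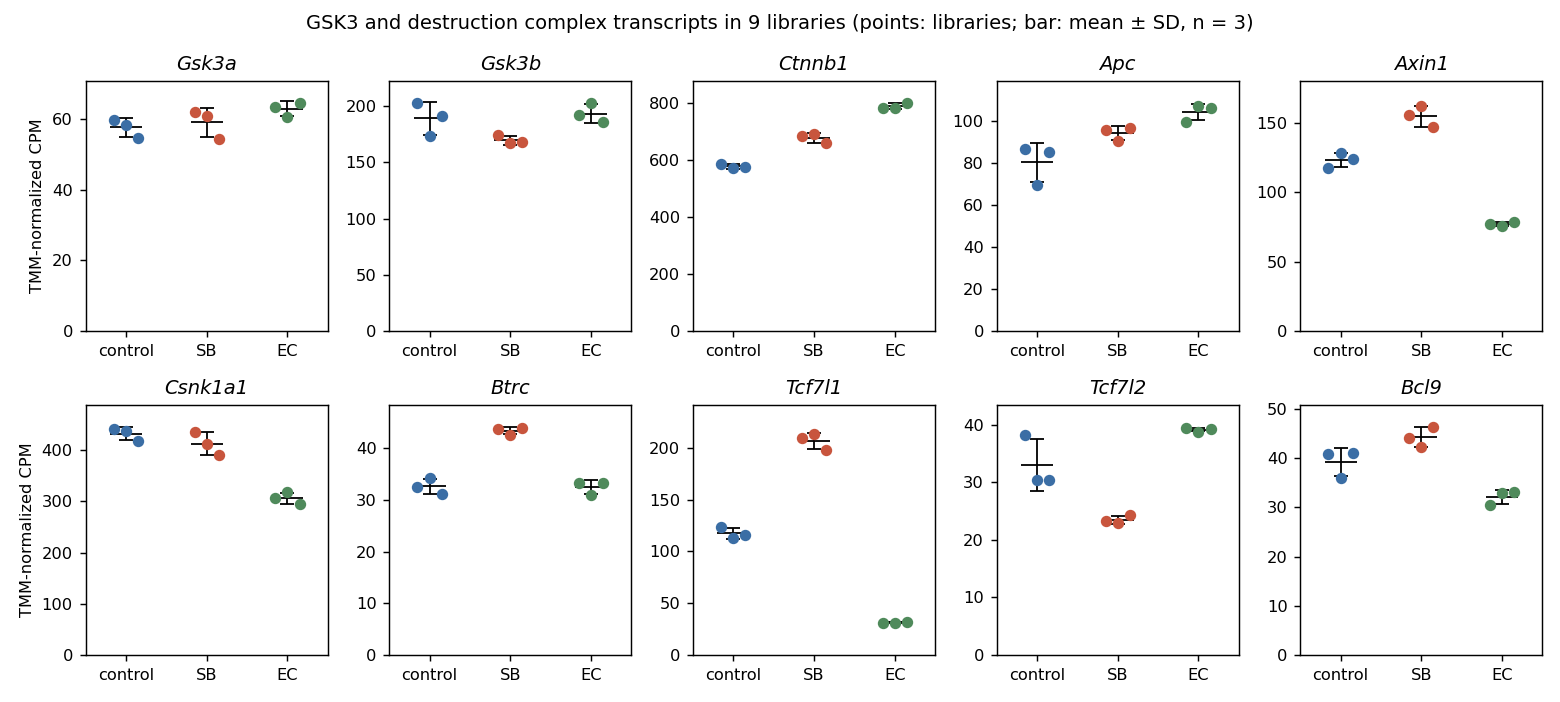
TMM-normalized CPM (y axes, from 0) of the 10 genes in control osteoblasts, SB216763-treated osteoblasts (SB), and ECs; points are libraries and bars are the mean ± SD (n = 3). Gsk3a and Gsk3b lie at like heights in all 3 groups, whereas Tcf7l1 is at 198 to 213 CPM in treated osteoblasts and 31.2 to 31.9 CPM in ECs.

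Ctnnb1, which encodes β-catenin itself, rose modestly. It was at 587, 570.5, and 576 CPM in control libraries, 683, 692, and 657 CPM in treated libraries, and 780.3, 783, and 799.8 CPM in EC libraries. The 3 groups did not overlap, and the treated osteoblasts stood between the other two. The log2 fold change was 0.23 (95% interval 0.14 to 0.32, edgeR adjusted p = 2.9e-04) with treatment, 0.45 for ECs over control (edgeR adjusted p = 1.7e-07), and 0.22 for ECs over treated osteoblasts (edgeR adjusted p = 3.65e-04). The last of these did not pass without the expression filter (edgeR adjusted p = 0.0158). Exons of Ctnnb1 overlap those of Ulk4 on the other strand by 759 bases on chromosome 9, and Ulk4 held 1256 counts over all libraries against at least 16578 for Ctnnb1 in each. The closest profiles to Ctnnb1 were those of Imp4, Bag3, and Sfmbt1, at a root mean square difference of 0.0235 to 0.0407 against a median of 0.552.

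The scaffolds Axin1 and Apc were both higher in treated than in control osteoblasts, and only Axin1 held under all the library omissions. Axin1, the scaffold whose amount is thought to limit the complex, was at 118, 128, and 124 CPM in control, 155, 162, and 147 CPM in treated, and 76.9, 75.8, and 78.3 CPM in EC libraries. Each group was separate from the others, with treated osteoblasts highest and ECs lowest. The log2 fold change was 0.33 with treatment (edgeR adjusted p = 1.3e-05), -0.68 for ECs against control (edgeR adjusted p = 2.05e-09), and -1.01 for ECs against treated osteoblasts (edgeR adjusted p = 1.11e-11).

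Its paralog Axin2, a feedback target of the pathway, moved the other way. Axin2 was at 26.5, 24.4, and 27.1 CPM in control libraries, 0.831, 0.912, and 0.980 CPM in treated libraries, and 0.183, 0.183, and 0.232 CPM in EC libraries, a log2 fold change of -4.83 with treatment (edgeR adjusted p = 4.06e-16). Per kilobase, Axin1 made up 87.2% ± 0.99 of the axin transcripts in control and 99.6% ± 0.0479 in treated osteoblasts (SD, n = 3). The summed axin level was 36.9 ± 1.22 CPM per kb in control and 40.6 ± 1.97 in treated osteoblasts.

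Apc encodes the large scaffold that is lost in many intestinal tumors. Its levels were 86.6, 69.7, and 85.2 CPM in control, 95.8, 90.9, and 97.0 CPM in treated, and 99.9, 107, and 106 CPM in EC libraries. Control replicate 2 was the lowest library. The log2 fold change with treatment was 0.23 (95% interval 0.10 to 0.37, edgeR adjusted p = 0.00631). It was 0.13 (edgeR adjusted p = 0.02) without control replicate 2. The call was also lost without SB216763 replicate 1 or 3 (edgeR adjusted p = 0.0246 for each), without EC replicate 2 (edgeR adjusted p = 0.0112), and when only the osteoblast libraries were fitted (edgeR adjusted p = 0.0289). ECs were above control by 0.38 (edgeR adjusted p = 9.84e-05), and the difference of 0.14 from treated osteoblasts did not pass the test (edgeR adjusted p = 0.0617), though it did without control replicate 2 (0.14, edgeR adjusted p = 0.0036). Its paralog Apc2 was at 1.29 to 1.89 CPM in control and 2.94 to 3.67 CPM in treated osteoblasts, a log2 fold change of 0.95 (edgeR adjusted p = 8.64e-05).

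Control replicate 2 differed from the other controls by transcript length, a check made after the values were seen. Of 1924 genes with over 8 kb of exon and at least 10 CPM, 77.1% were lower in it than in the mean of control replicates 1 and 3, with a median log2 difference of -0.106. Of 926 genes under 2 kb, 7.56% were lower, with a median of 0.104. Of the long members, Apc (16116 bases) followed at -0.303, Bcl9 (8446 bases) at -0.187, and Gsk3b (9831 bases) at -0.181. Btrc (16908 bases), at 0.104, and Csnk1a1 (10502 bases), at 0.0267, did not. Tcf7l2 (8775 bases) was at -0.174, but its control replicate 2 (30.4 CPM) was level with replicate 3 (30.3 CPM). Control replicate 1 stood apart for this gene, at 38.2 CPM.

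Of the casein kinase and the ligase adaptor, the adaptor alone passed the test with treatment. Csnk1a1 encodes casein kinase 1α, which primes β-catenin for GSK3. It was at 442, 438, and 417 CPM in control, 436, 412, and 390.1 CPM in treated, and 306, 318, and 296 CPM in EC libraries. The osteoblast groups overlapped (log2 fold change -0.07, 95% interval -0.17 to 0.03, edgeR adjusted p = 0.258), whereas all EC libraries were below all osteoblast libraries, by -0.50 against control (edgeR adjusted p = 2.18e-07) and by -0.43 against treated osteoblasts (edgeR adjusted p = 1.11e-06). Scaled by library totals alone, the value with treatment was 0.14. Btrc encodes β-TrCP1. It was at 32.5, 34.2, and 31.2 CPM in control, 43.8, 42.6, and 43.9 CPM in treated, and 33.3, 30.98, and 33.3 CPM in EC libraries. Treated libraries were all above the others, while control and EC libraries overlapped. The log2 fold change was 0.41 with treatment (95% interval 0.31 to 0.50, edgeR adjusted p = 1.21e-06), -0.42 for ECs against treated osteoblasts (edgeR adjusted p = 7.64e-07), and -0.01 for ECs against control (95% interval -0.10 to 0.09, edgeR adjusted p = 0.906). The paralog Fbxw11, which encodes β-TrCP2, was at 151 to 162 CPM in control and 154 to 165 CPM in treated osteoblasts (log2 fold change 0.04, edgeR adjusted p = 0.377). Since Fbxw11 made up 94.9% ± 0.128 of the sum per kilobase in control and 93.5% ± 0.305 in treated osteoblasts (SD, n = 3), the sum stood at 37.8 ± 1.44 and 39.6 ± 1.3 CPM per kb, with overlapping libraries.

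The largest differences of the 10 genes were in Tcf7l1, which encodes TCF3, a TCF factor known mainly as a repressor of Wnt targets when β-catenin is absent. Tcf7l1 was at 123, 113, and 116 CPM in control libraries, 209, 213, and 198 CPM in treated libraries, and 31.3, 31.2, and 31.9 CPM in EC libraries. It rose 1.76-fold with treatment (log2 fold change 0.82, 95% interval 0.73 to 0.91, edgeR adjusted p = 1.57e-10). ECs were lower than control by a log2 fold change of -1.90 (edgeR adjusted p = 3.25e-15) and lower than treated osteoblasts by -2.72 (edgeR adjusted p = 4.11e-17). Tcf7l2, which encodes TCF4 and is a common partner of β-catenin, went the other way. It was at 38.2, 30.4, and 30.3 CPM in control, 23.2, 23.0, and 24.3 CPM in treated, and 39.4, 38.8, and 39.2 CPM in EC libraries. Treated libraries were all below the others, at a log2 fold change of -0.50 against control (95% interval -0.65 to -0.35, edgeR adjusted p = 2.14e-05). ECs were above treated osteoblasts by 0.74 (edgeR adjusted p = 1.7e-07). Their difference of 0.24 from control (edgeR adjusted p = 0.00665) lost its call in a fit of only these groups (edgeR adjusted p = 0.0214) and when any library other than control replicate 1 was left out (edgeR adjusted p = 0.0114 to 0.0475).

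Bcl9 encodes an adaptor that ties β-catenin to pygopus. It was at 40.8, 36.0, and 41.2 CPM in control, 44.2, 42.4, and 46.4 CPM in treated, and 30.5, 32.9, and 33.2 CPM in EC libraries. The treated libraries lay above all controls without passing the threshold (log2 fold change 0.18, 95% interval 0.06 to 0.29, edgeR adjusted p = 0.0123). With upper-quartile normalization or library totals alone it did pass, at 0.19 and 0.38 (edgeR adjusted p = 0.00829 and 2.91e-05). Without control replicate 2, the lowest control library, it was 0.11 (edgeR adjusted p = 0.0847). ECs were lower than control by -0.29 (edgeR adjusted p = 2.94e-04, but 0.0209 with library totals alone) and lower than treated osteoblasts by -0.46 (edgeR adjusted p = 2.05e-06). The paralog Bcl9l was at 209 to 252 CPM in control, 211 to 231 CPM in treated osteoblasts, and 96.6 to 103 CPM in ECs.

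Counted together, 5 of the 10 genes rose (Ctnnb1, Apc, Axin1, Btrc, and Tcf7l1), 1 fell (Tcf7l2), and 4 did not pass the test (Gsk3a, Gsk3b, Csnk1a1, and Bcl9) between treated and control osteoblasts. Among all genes tested, 32.9% were called higher, 32.0% lower, and 64.9% in either direction, so the share called was close to that of all genes. Of the 9494 genes with a mean of at least 10 CPM, 3587 were called higher, 3649 lower, and 2258 not called. None of the 10 reached the additional requirement of an absolute log2 fold change of 2, which 9.65% of all genes met. The libraries did not overlap for 6 of the 10 in the higher direction and for 1 in the lower, against 37.3% and 35.9% of all genes. The median absolute log2 fold change of the 10 was 0.23, against 0.55 for all genes and 0.46 for the 9494 genes with a mean of at least 10 CPM. Between ECs and control osteoblasts 3 were higher, 4 lower, and 3 not called, against 39.0% higher, 37.9% lower, and 76.9% in either direction among all genes. None was past a log2 fold change of 2, against 23.4% of all genes. The libraries did not overlap for 4 in the higher and 4 in the lower direction, against 42.6% and 41.4%. Between ECs and treated osteoblasts 3 were higher, 5 lower, and 2 not called, against 40.3%, 38.3%, and 78.6% in either direction. The libraries did not overlap for 4 in the higher and 5 in the lower direction, against 43.8% and 41.6%. Tcf7l1 alone was past the log2 fold change of 2 there, against 25.3% of all genes. The median absolute log2 fold change was 0.33 against 0.72 for all genes in the former comparison and 0.42 against 0.82 in the latter. The comparisons share libraries, so their values are given side by side only.

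**Figure D2:**
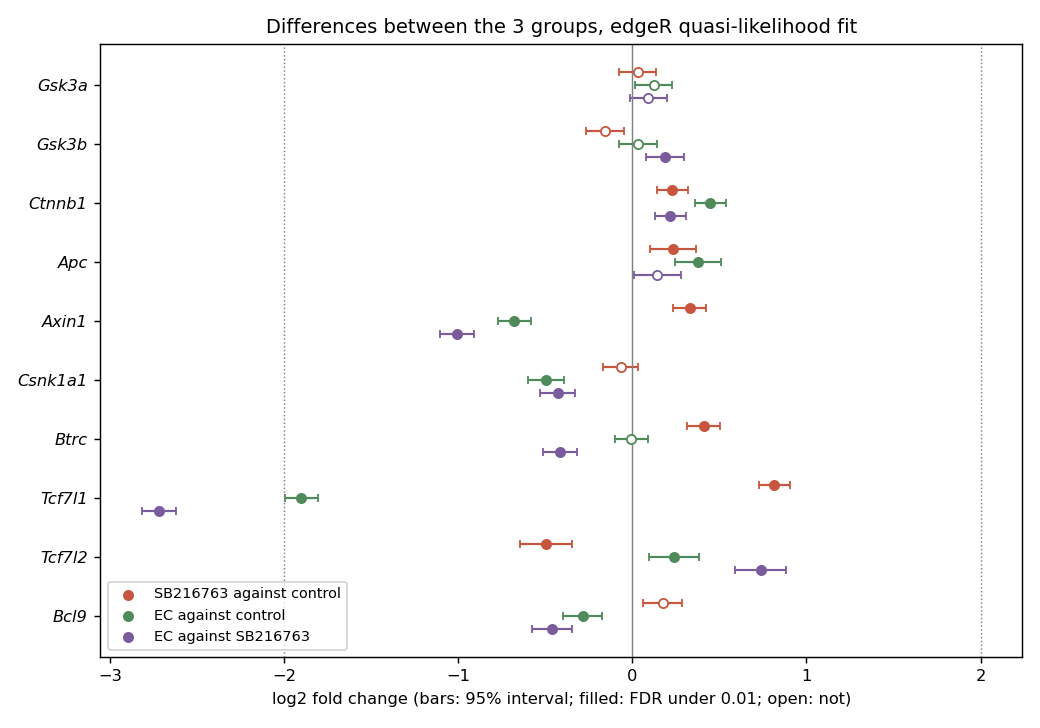
Log2 fold change (x axis) of the 10 genes in 3 comparisons, from the edgeR quasi-likelihood fit. Bars are 95% intervals from a normal quantile. Filled points have an adjusted p under 0.01, and dotted lines mark an absolute log2 fold change of 2. Gsk3a lies between 0.03 and 0.12 in all 3 comparisons, and Tcf7l1 runs from 0.82 to -2.72.

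The makeup of the TCF/LEF transcripts differed between the groups. This comparison of family members was chosen after their values were seen and is a description. Tcf7, which encodes TCF1 and is itself a Wnt target, was at 79.2, 75.9, and 72.5 CPM in control, 1.86, 1.67, and 1.82 CPM in treated, and 10.7, 9.74, and 11.1 CPM in EC libraries, a log2 fold change of -5.41 with treatment (edgeR adjusted p = 1.48e-17). Lef1 was at 7.95, 6.59, and 6.80 CPM in control, 3.75, 4.25, and 3.89 CPM in treated, and 0.229, 0.152, and 0.0926 CPM in EC libraries (log2 fold change -0.85, edgeR adjusted p = 3.88e-06). Per kilobase of exon, Tcf7l1 made up 47.2% ± 0.755 of the TCF/LEF transcripts in control and 93.3% ± 0.383 in treated osteoblasts (SD, n = 3). Over the same groups Tcf7 went from 45.6% ± 0.887 to 1.204% ± 0.0973, Tcf7l2 from 5.91% ± 0.523 to 4.74% ± 0.301, and Lef1 from 1.27% ± 0.073 to 0.797% ± 0.0439. The summed level was 63.4 ± 3.01 CPM per kb in control and 56.6 ± 1.89 in treated osteoblasts. ECs had a lower sum, 16.5 ± 0.374 CPM per kb, of which Tcf7l1 took 48.6% ± 0.707, Tcf7l2 27.0% ± 0.455, and Tcf7 24.3% ± 1.1. Scaling by the longest transcript in place of all exons gave Tcf7l1 48.2% in control, 89.3% in treated osteoblasts, and 41.1% in ECs, where Tcf7l2 then had 41.8%. By that length Tcf7 went from 38.3% to 0.949%, Tcf7l2 from 11.04% to 8.31%, and Lef1 from 2.42% to 1.42% with treatment, the same directions at other levels. The order of these in ECs therefore depends on the length used.

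**Figure D3:**
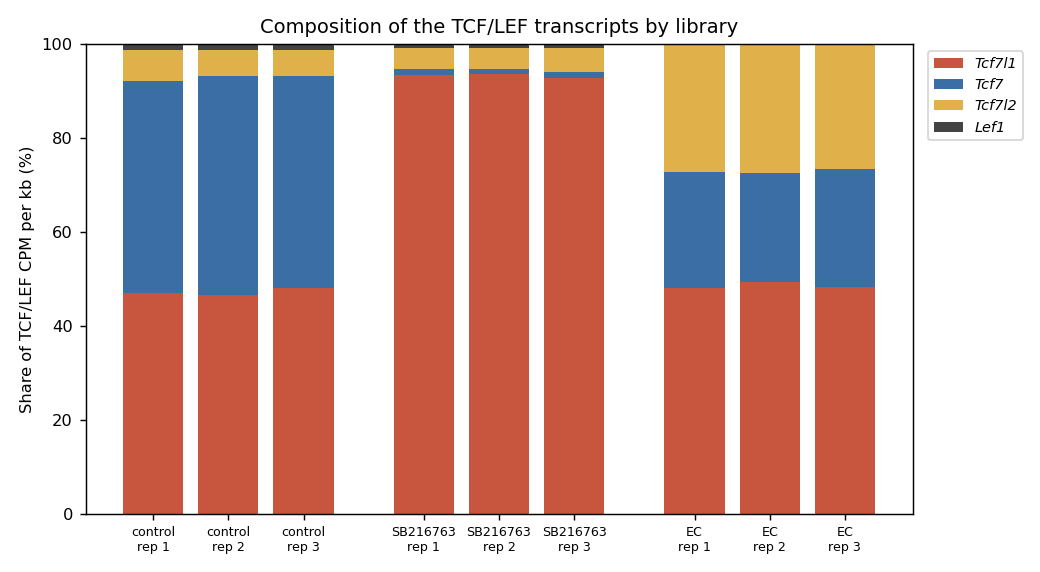
Share of the 4 TCF/LEF genes in their summed CPM per kb of exon (y axis, %) in each of the 9 libraries (x axis). Tcf7l1 fills 92.8% to 93.6% of the bar in treated osteoblasts against 46.6% to 48.1% in control osteoblasts.

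Within libraries, the ratios of 10 pairs of paralogs were compared between treated and control osteoblasts with the exact 2-sided permutation test. Apart from Gsk3b to Gsk3a, the libraries of the groups did not overlap and each pair gave an exact permutation p = 0.1, the smallest that 3 against 3 libraries allow, so that no pair can pass a threshold of 0.05. Levels of single genes did not overlap for 37.3% of all genes tested in the higher direction and 35.9% in the lower. No such share was computed for ratios. The log2 ratio moved by -5.15 for Axin2 to Axin1, -6.22 for Tcf7 to Tcf7l1, -1.66 for Lef1 to Tcf7l1, and -1.30 for Tcf7l2 to Tcf7l1. It moved by 0.71 for Apc2 to Apc, -0.37 for Fbxw11 to Btrc, and -0.26 for Bcl9l to Bcl9. For the casein kinases it moved by 0.17 for Csnk1d to Csnk1a1 and by -0.45 for Csnk1e to Csnk1a1. Csnk1e had fallen, from 68.8 to 69.8 CPM down to 48.0 to 48.3 CPM (log2 fold change -0.52, edgeR adjusted p = 5.29e-09), while Csnk1d did not pass the test (log2 fold change 0.10, edgeR adjusted p = 0.0342). No run of 50 bases was shared between any of the 10 genes and a paralog listed here in GENCODE M21 transcripts.

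Of 29 other genes of β-catenin turnover (casein kinase 1 isoforms, the SCF ligase, PP2A subunits, Dishevelled, and tankyrases), 28 were tested, and 7 rose, 6 fell, and 15 did not pass the test with treatment, against 32.9% of all genes tested called higher and 32.0% lower. Their median log2 fold change was 0.07, against 0.01 for all genes. Axin2 fell the most. Cul1, the cullin backbone of the SCF ligase to which β-TrCP binds, rose from 183, 192, and 185 CPM to 416, 417, and 399 CPM and was at 170.2 to 174 CPM in ECs (log2 fold change with treatment 1.14, edgeR adjusted p = 1.04e-12). Apc2 came next in size. In ECs against control osteoblasts, 9 were higher and 11 lower (39.0% and 37.9% of all genes), and against treated osteoblasts 8 were higher and 13 lower (40.3% and 38.3% of all genes).

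Of 17 nuclear partners of β-catenin or of TCF/LEF factors, 7 rose, 4 fell, and 6 did not pass the test. The share called was close to the 64.9% of all genes (32.9% higher, 32.0% lower). Their median log2 fold change was 0.24. The largest changes among those called were in Tcf7, Tle4, and Lef1, all of them decreases. Tle4, a Groucho corepressor that binds TCF factors, went from 7.94, 6.39, and 7.74 CPM to 3.12, 3.47, and 3.73 CPM with treatment and was at 22.1 to 23.3 CPM in ECs (log2 fold change with treatment -1.09, edgeR adjusted p = 7.39e-08). In ECs against control 6 were higher and 7 lower, where 39.0% and 37.9% of all genes were, and against treated osteoblasts 7 and 7, where 40.3% and 38.3% were.

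Of 12 kinases and binding proteins that act on GSK3, 11 were tested, and 5 rose, 5 fell, and 1 did not pass the test (median 0.20), with 32.9% of all genes called higher and 32.0% lower. Akt2, a kinase that phosphorylates and inhibits GSK3, rose from 165, 174, and 159.7 CPM to 289.9, 296, and 266 CPM and was at 34.9 to 36.6 CPM in ECs (log2 fold change with treatment 0.77, edgeR adjusted p = 9.28e-10). Gskip, a GSK3-binding protein, rose by 0.53 (edgeR adjusted p = 1.96e-06). Frat2, which draws GSK3 away from axin, was at 0.746 to 0.787 CPM in control and 0.313 to 0.381 CPM in treated osteoblasts (log2 fold change -1.14, edgeR adjusted p = 4.34e-04). Higher in ECs than in control were 6 and lower 4 (all genes, 39.0% and 37.9%), and against treated osteoblasts 4 and 3 (all genes, 40.3% and 38.3%). Disc1, at 0.109 to 0.205 CPM in control and 1.07 to 1.53 CPM in ECs, passed the filter through the ECs only. Its place among the genes higher in ECs therefore followed from how it entered.

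Of the 6 other catenins, 3 were tested and these 3 fell, where 32.0% of all genes tested were called lower. Ctnna1, which encodes α-catenin of adherens junctions, went from 360.4 to 394 CPM in control down to 272 to 279 CPM in treated osteoblasts (log2 fold change -0.45, edgeR adjusted p = 2.8e-07). Jup, which encodes plakoglobin, had a log2 fold change of -0.30 (edgeR adjusted p = 7.23e-04), as did Ctnnd1, which encodes p120-catenin (edgeR adjusted p = 9.29e-04). Against control, ECs had higher Ctnna1 and Jup and lower Ctnnd1, and against treated osteoblasts Ctnna1 and Jup were higher and Ctnnd1 did not pass the test (log2 fold change 0.02, edgeR adjusted p = 0.816).

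Transcripts of 14 known feedback and target genes of the pathway were also compared. Of these, 10 passed the expression filter, among them Sp5, which had 0 counts in all osteoblast libraries, passed through the ECs only, and is left out below. Of the other 9, 8 fell with treatment, where 32.0% of all genes were called lower, and Znrf3 did not pass the test (log2 fold change 0.08, edgeR adjusted p = 0.204). The median log2 fold change of the 9 was -3.73, also with Nkd2 set to its bound. Nkd2 and Rnf43 passed the filter only through the control libraries, the group where they are high. Their decreases from control therefore followed in part from how they entered. This bears on the counts for treated osteoblasts and ECs against control and on the median. Nkd2 had 96, 90, and 49 counts in control libraries and 1, 0, and 0 in treated libraries, at least 18.8-fold lower against 3 counts per library. Rnf43, a ligase that removes Wnt receptors, went from 26.6, 21.8, and 23.1 CPM to 0.172, 0.339, and 0.408 CPM (log2 fold change -6.26, edgeR adjusted p = 1.19e-14). These decreases were measured after 14 days, and no earlier time was analysed here. Between ECs and control 2 of the 9 were higher and 7 lower (all genes, 39.0% and 37.9%), and between ECs and treated osteoblasts 5 and 4 (all genes, 40.3% and 38.3%).

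**Figure D4:**
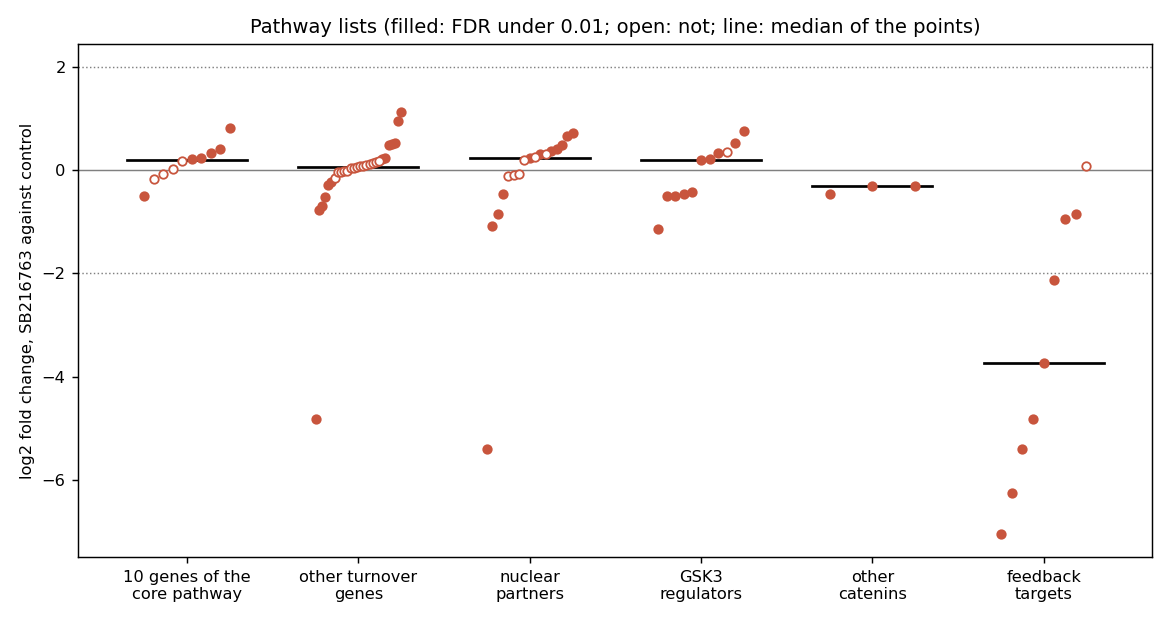
Log2 fold change (y axis) between SB216763-treated and control osteoblasts for the 10 genes and the 5 lists, 1 point per gene tested; filled points have an adjusted p under 0.01, black lines are medians, and dotted lines mark an absolute log2 fold change of 2. Axin2, Tcf7, and Lef1 stand in the target list and in another, and Sp5, with 0 counts in both groups, is left out. The 9 targets drawn have a median of -3.73 against 0.20 for the 10 genes. Among them, Nkd2 and Rnf43 passed the filter only through the control libraries.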

How the data were processed

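The authors aligned the reads with STAR (version 2.5.3a, genome GRCm38, per the submitters' processing notes) and deposited raw counts per gene, whole numbers without normalization. The annotation and strand setting are not given in the sources used here. The same treatment text stands in the labels of all samples, so groups were taken from titles. Columns were matched by name. Counts of all 9 libraries entered 1 edgeR 4.0.16 quasi-likelihood fit (R 4.3.3, filterByExpr, TMM, prior count 0.125, no replicate block), with Benjamini-Hochberg adjustment over 15531 genes. Genes were called at an FDR under 0.01, and by a second rule that also asks for 2 or more in absolute log2 fold change. Total counts ran from 30990107 to 68946333, and the biological coefficient of variation 0.0554.

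Paralog ratios used counts plus 0.5 and exact permutation tests (SciPy 1.17.1). Lengths and coordinates came from GENCODE M21, which holds 45737 of the 50686 identifiers in the same version. Promoters came from RefSeq. Named are all 10 genes, their paralogs, the 3 genes with the largest called change in each list, and the 3 closest profiles to Gsk3a, Gsk3b, and Ctnnb1. Znrf3, Sp5, Disc1, Acta2, Pdgfra, Pdgfrb, Cd68, Lyz2, the osteoblast markers, and genes at overlaps were named after their values were seen. The genes and lists were chosen with earlier results of these data known. Other runs used limma-voom (limma 3.58.1), DESeq2 1.42.0, 2 other normalizations, other filters, thresholds and prior counts, fits of the groups compared, a replicate block, and leaving out each library. On simulated counts of 14016 genes for treated against control osteoblasts, the test called 100 of 100 genes altered by 1 on the log2 scale and 97 of 100 altered by 0.5, with 4 false calls. The simulation altered 200 well-expressed genes only, gave all genes the same dispersion, and held no shift of a single library. In the data 64.9% of genes were called and control replicate 2 differed by transcript length, so these rates may not carry over.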

Additional observations from a re-analysis of the deposited data

How the results depend on the processing

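Counts of the 10 genes and of the lists kept within 1.5 times of their reported values, and the fold changes kept their directions, under most alternatives, and the exceptions follow. Between treated and control osteoblasts, genes lower numbered 2 in place of 1 at an FDR under 0.05, with DESeq2 (Gsk3b, adjusted p = 0.00878), and without control replicate 2 (range 1 to 2 over the libraries left out). Requiring a log2 fold change of at least 1 left 0 higher and 0 lower of the 10, 2 turnover genes, 2 nuclear partners, 1 GSK3 regulator, and 0 other catenins. The same requirement left, for ECs against control, 0 higher and 1 lower, 5 turnover genes, 5 GSK3 regulators, and 1 catenin, and for ECs against treated osteoblasts 0 higher and 2 lower, 5 turnover genes, and 8 nuclear partners. Scaling by library totals alone called 25 turnover genes and 1 catenin with treatment, and moved the median log2 fold change of all genes tested to 0.22 with treatment, 0.13 for ECs against control, and -0.06 for ECs against treated osteoblasts. Without the expression filter, 1 of the 10 genes in place of 3 was called higher in ECs than in treated osteoblasts.

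Values near 0 changed sign. Over the libraries left out in turn, Gsk3a with treatment ran from -0.0117 to 0.087, below 0 without control replicate 3 or SB216763 replicate 1. By library totals alone, Gsk3b was 0.0464 and Csnk1a1 0.14 with treatment. For ECs against control, Gsk3b ran from -0.0351 to 0.0805 and Btrc from -0.0491 to 0.0217, with the sign changed without control replicate 2 or EC replicate 2. Btrc was 0.0076 with DESeq2 and 0.12 by library totals. The cause of these shifts was not tested.

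Same-numbered libraries deviated together with correlations of 0.00286, 0.123, and 0.081 between control and treated osteoblasts and of at most 0.0337 elsewhere, so the numbers were not taken to pair the libraries. With a replicate block, 6 of the 10 in place of 5 were called higher with treatment, as Bcl9 passed (log2 fold change 0.17, edgeR adjusted p = 0.00645), and 1 lower. The block left the log2 ratio of Gsk3b to Gsk3a at -0.19.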
